A study of Rattus norvegicus with 18 samples.

Results

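The genes described here encode the Zfp36 family of RNA-binding proteins and the machinery that shortens poly(A) tails of mRNA. They were chosen by name, as a set of 10 genes: Zfp36, Zfp36l1, Zfp36l2, Elavl1, Cnot1, Cnot6, Cnot7, Btg1, Tob1 and Tob2. All 10 were found among the 17455 genes of each deposited expression table, and 8 of them carried at least 1 peak in the lists of N6-methyladenosine (m6A) peaks. The cells were H9c2, a rat heart myoblast line of wild type genotype, which the labels place in the myocardium. They were kept as control cells, treated with bufalin, or treated with periplocin, and the study asked whether the m6A mark on mRNA takes part in the toxicity of both compounds to heart cells. For each of these 3 conditions there were 3 immunoprecipitated (IP) libraries, in which an m6A antibody had pulled down marked fragments, and 3 input libraries, giving 18 samples in 6 groups. Bufalin and periplocin are cardiotonic steroids, which block the sodium pump of the cell membrane; the first is a bufadienolide without a sugar and the second a cardenolide glycoside. The labels give neither dose nor time, so whether the compounds were matched in either is unknown.

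The deposited files hold the authors' comparisons with control and no values of single libraries. Levels are therefore given as group means in normalized counts, rebuilt from the mean and the fold change in the authors' deposited tables, and the error of a change is the authors' standard error (SE). Whether the expression tables were made from input or from IP libraries is not stated in the sources used here. The labels do not say whether the 3 replicates were separate cultures, so p-values measure only the spread between these samples, which may be technical. RNA came from whole cultures, in which fewer cells of a type and less RNA per cell cannot be told apart. Of 10 myogenic markers, 7 had a mean of at least 10 normalized counts with bufalin and control cells, and 6 with periplocin and control cells, among them Myod1 and Des, and Pax7 and Myf5 were listed at 0. Of 11 cardiomyocyte markers 7 reached that mean in both tables, with Nppb listed at 0. In both tables this was so for 2 of 5 endothelial markers, 2 of 5 markers of leukocytes, and 1 of 5 of epithelium. Their summed means in the bufalin and periplocin tables were 7626 and 6808 for the myogenic list and 5155 and 5441 for the cardiomyocyte list. The sums were 295 and 288 for the endothelial list, 113 and 103 for the leukocyte list, and 1099.8 and 1067 for the epithelial list. Single genes made up most of some sums: cardiomyocyte Tnnt2 had 4293 and 4587, endothelial Vwf 274 and 260, and epithelial Krt8 1099.8 and 1064. The cardiomyocyte markers Actn2, Ryr2 and Nppa were below 10 in both tables.

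Zfp36, also called tristetraprolin, and its relatives Zfp36l1 and Zfp36l2 are zinc finger proteins that bind AU-rich elements in the untranslated ends of short-lived mRNAs, among them those of many cytokines and early response genes. They recruit the CCR4-NOT complex, which removes the poly(A) tail and so starts the decay of the mRNA. Elavl1, or HuR, binds similar elements and is known for keeping such mRNAs stable. Within CCR4-NOT, Cnot1 is the scaffold, and Cnot6 and Cnot7 are deadenylases. Btg1, Tob1 and Tob2 belong to the Btg/Tob family of antiproliferative adaptors, which bind the Cnot7 type of deadenylase; Tob proteins also bind the cytoplasmic poly(A)-binding protein.

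The promoters of Zfp36 and Tob1 are shown because these genes had the largest estimated increases among the 10. Each sequence runs from 250 bases before to 50 bases after the start site in RefSeq, build GRCr8. Start sites were taken from that annotation and were not checked in these cells. The Zfp36 promoter lies at chr1:92799059-92799358 on the minus strand and that of Tob1 at chr10:79659743-79660042 on the plus strand. Capitals mark matches to 6 motifs, searched on both strands and chosen after the sequences had been seen: the CArG box bound by serum response factor, the TATA box as TATAAA, the Fos and Jun site as TGANTCA, the cyclic AMP response element as TGACGTCA, the NF-Y box as CCAAT, and the GC box as GGGCGG.
Zfp36: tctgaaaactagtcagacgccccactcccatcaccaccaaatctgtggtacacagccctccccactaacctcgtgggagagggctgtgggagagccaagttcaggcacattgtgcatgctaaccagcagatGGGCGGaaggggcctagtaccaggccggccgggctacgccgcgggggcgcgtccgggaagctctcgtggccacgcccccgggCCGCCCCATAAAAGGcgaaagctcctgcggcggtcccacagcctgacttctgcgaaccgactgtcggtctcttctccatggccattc
Tob1: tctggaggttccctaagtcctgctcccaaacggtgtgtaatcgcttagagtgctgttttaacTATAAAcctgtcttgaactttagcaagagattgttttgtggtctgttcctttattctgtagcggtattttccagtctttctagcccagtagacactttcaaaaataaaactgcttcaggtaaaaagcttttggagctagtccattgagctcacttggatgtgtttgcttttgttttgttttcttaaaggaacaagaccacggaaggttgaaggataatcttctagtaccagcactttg
In the Zfp36 promoter a CArG box covered bases -32 to -23 from the start site, and its first base was also the last base of a GGGCGG match on the minus strand, at -37 to -32. A further GGGCGG match lay at -119 to -114. The window taken as the Tob1 promoter held a single match, TATAAA at -188 to -183. The bases just before its start site are rich in T and end in AG. Whether that site is the start of the full Tob1 transcript was not checked, so the window may not be its promoter. Promoter entries were matched for 9 of the 10 genes, all but Cnot7. A CArG box was present in 1 of these 9, against 1.64% of all 33469 promoters in the RefSeq table. TATAAA was present in 3 (14.2% of all), TGANTCA in 1, that of Zfp36l1 (7.33% of all), TGACGTCA in 0 (1.83% of all), CCAAT in 5 (37.5% of all) and GGGCGG in 3 (33.1% of all). Btg1 was among those with GGGCGG. The 50 bases after its start site begin with ATG, the letters of a start codon. As for Tob1, the window taken for Btg1 may therefore not be its promoter. The GC content was 63.7% in the Zfp36 promoter and 40.0% in that of Tob1, with a median of 51.7% over all promoters. These matches describe the letters of the windows and no binding was measured. GRCr8 coordinates differ from those of rn6, the build of the m6A peaks, and Zfp36 and Elavl1 lie on the minus strand in the RefSeq table and on the plus strand in the peak lists.

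In RNA, neither compound gave a call among the 10 genes, that is an adjusted p under 0.05 in the authors' deposited tables (DESeq2, Benjamini-Hochberg adjustment). Over all genes with an adjusted p, 0.301% passed with bufalin (10 of 3321) and 0.538% with periplocin (67 of 12445). The bufalin table gave an adjusted p only for genes with a mean of at least 2259 normalized counts, which covered 4 of the 10, namely Zfp36l2, Cnot1, Btg1 and Tob1. At an unadjusted p under 0.05 the authors' deposited tables (DESeq2) held 0 of the 10 with bufalin, where 5.0% of all genes passed, and 1 with periplocin, where 6.25% did. That gene was Tob1, which encodes an adaptor between deadenylase and mRNA. The median log2 change of the 10 was 0.02 with bufalin and 0.05 with periplocin, against 0.00 and -0.00 over all genes whose mean reached 10. Estimates were above 0 for 6 of the 10 with bufalin and 8 with periplocin, where 5338 of 10674 and 5292 of 10688 such genes were above 0. Both comparisons used the control cells, so the estimates for bufalin and periplocin are not independent of each other.

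**Figure D1:**
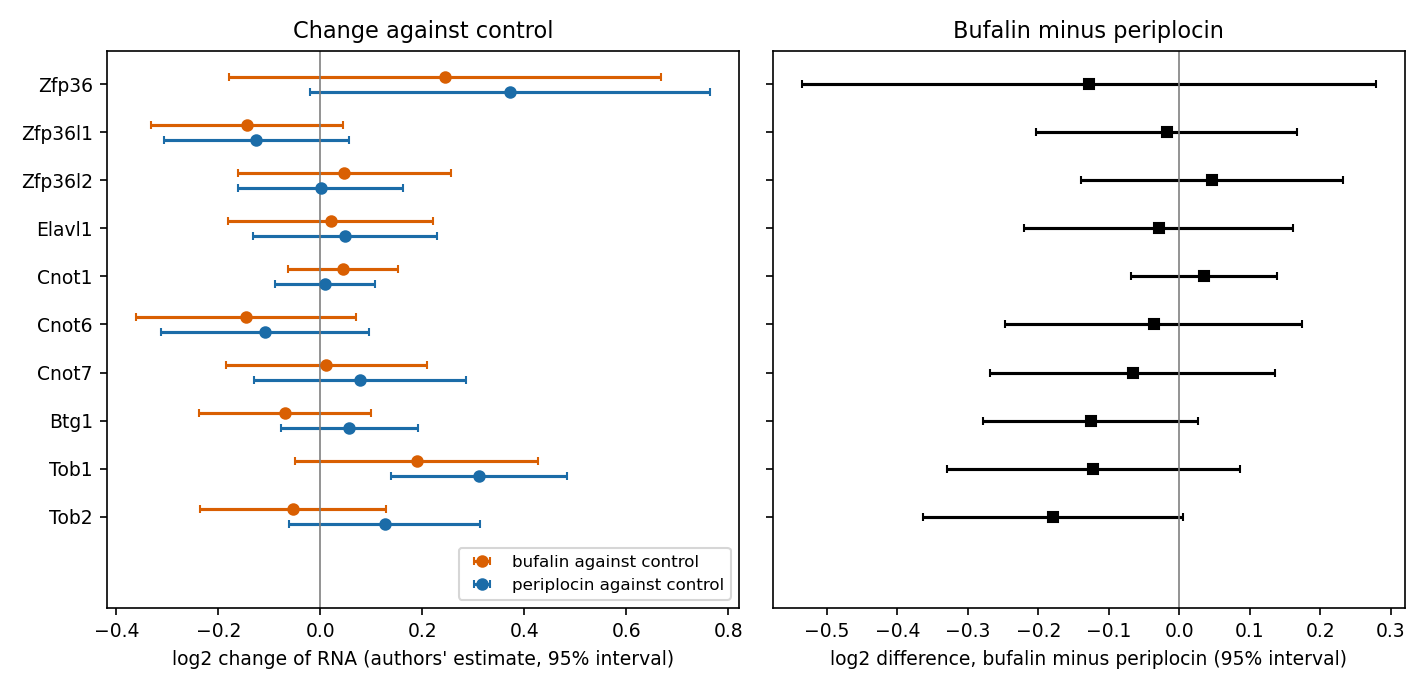
The left panel plots the log2 change of RNA against control for the 10 genes, as estimated in the authors' deposited tables, with bars for 95% intervals; the right panel plots the difference bufalin minus periplocin with its 95% interval. The only interval that leaves out 0 is that of Tob1 with periplocin, and the widest are those of Zfp36.

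Zfp36 had the largest estimated increase of the 10 and also the widest interval. Its mean was 591 normalized counts in control cells and 700 with bufalin, and for the periplocin comparison 573 in control cells and 741 with periplocin. With bufalin this was 1.18-fold of control (95% interval 0.883 to 1.59), and the authors' deposited table gives a log2 change of 0.24 ± 0.22 (SE) with p = 0.260 (DESeq2) and no adjusted p. With periplocin it was 1.29-fold (95% interval 0.986 to 1.70), with a log2 change of 0.37 ± 0.20 (SE), p = 0.0636 and an adjusted p of 0.791 (DESeq2) in the authors' deposited table. Both 95% intervals include no change. The SE of Zfp36 was larger than that of 99.0% of the 500 genes nearest to it in mean level in the bufalin table, and of 99.8% in the periplocin table. It corresponds to a coefficient of variation between libraries, beyond counting noise, of 17.9% and 16.6% if the spread was equal in treated and control cells.

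The relatives of Zfp36 were measured more precisely, with estimates near or below the control level. Zfp36l1 had a mean of 1799 normalized counts in control cells against 1628 with bufalin, and of 1743 against 1598 with periplocin. This was 0.905-fold of control (95% interval 0.795 to 1.03) and 0.917-fold (0.809 to 1.04). Both intervals include 1, and the authors' deposited tables (DESeq2) give p = 0.134 with bufalin and an adjusted p of 0.951 with periplocin. Zfp36l2 had a mean of 5935 in control cells against 6132 with bufalin, and of 5751 against 5754 with periplocin. With bufalin this was 1.03-fold (95% interval 0.894 to 1.19), and with periplocin the log2 change was 0.00 ± 0.08 (SE) in the authors' deposited table, with a 95% interval of the fold from 0.895 to 1.12. The adjusted p of Zfp36l2 in the authors' deposited tables (DESeq2) was 0.921 with bufalin and 0.9999 with periplocin. Its SE also stood high among the 500 genes nearest in mean, above 96.0% of them with bufalin and 95.4% with periplocin.

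**Figure D2:**
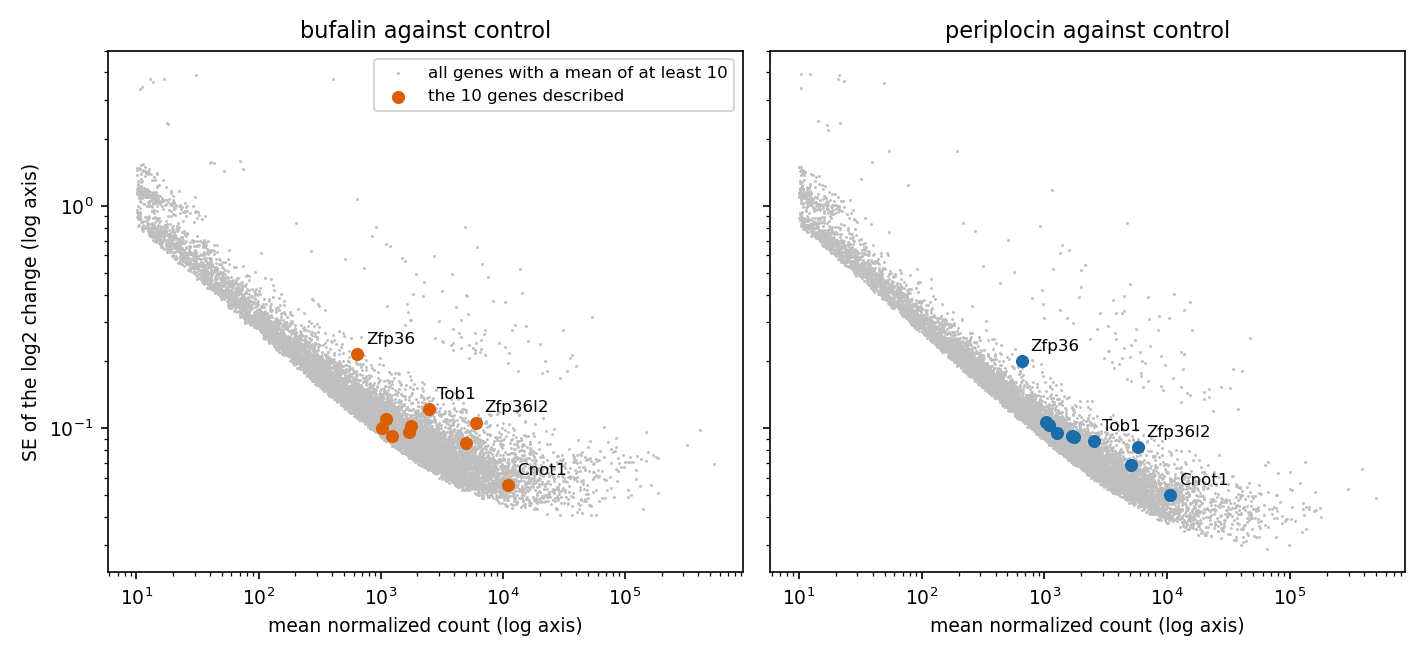
Each point is a gene, with its mean normalized count on the horizontal log axis and the SE of its log2 change in the authors' deposited tables on the vertical log axis, for genes whose mean reached 10. The 10 genes described are coloured, and Zfp36 lies at the upper edge of the genes of like mean, above 99.0% of the nearest 500 with bufalin and 99.8% with periplocin.

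Elavl1, which encodes the stabilising protein HuR, had estimates close to the control level. Its mean was 1763 normalized counts in control cells and 1788 with bufalin, or 1.01-fold (95% interval 0.882 to 1.17; p = 0.845 in the authors' deposited table, DESeq2). In the periplocin table it was 1709 in control cells and 1768 with periplocin, or 1.03-fold (95% interval 0.913 to 1.17), with an adjusted p of 0.9999 (authors' deposited table, DESeq2).

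Among the CCR4-NOT subunits, the scaffold Cnot1 was the most precisely measured of the 10 genes. It had a mean of 10929.7 normalized counts in control cells and 11272 with bufalin, and of 10589 and 10656 in the periplocin comparison. The folds were 1.03 (95% interval 0.957 to 1.11) and 1.01 (0.940 to 1.08), so both intervals leave out an increase above 1.11-fold or a decrease below 0.940-fold. Cnot6, a catalytic subunit, had estimates below the control level with both compounds. Its mean was 1159.6 in control cells against 1048 with bufalin (0.904-fold, 95% interval 0.779 to 1.05), and 1123 against 1041 with periplocin (0.927-fold, 0.805 to 1.07). The authors' deposited tables (DESeq2) give p = 0.187 for Cnot6 with bufalin and an adjusted p of 0.991 with periplocin. Cnot7, the other catalytic subunit among the 10 genes, had a mean of 1029 in control cells against 1037 with bufalin, and of 997 against 1052 with periplocin. Its folds were 1.01 (95% interval 0.879 to 1.16) and 1.06 (0.913 to 1.22), with p = 0.910 and p = 0.465 in the authors' deposited tables (DESeq2).

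Of the Btg/Tob adaptors, Tob1 came closest to a call. Its mean was 2331 normalized counts in control cells and 2657 with bufalin, and 2258 in control cells and 2802 with periplocin in the other table. The bufalin value was 1.14-fold of control (95% interval 0.966 to 1.34), with a log2 change of 0.19 ± 0.12 (SE) and an adjusted p of 0.660 in the authors' deposited table (DESeq2). With periplocin Tob1 was 1.24-fold of control (95% interval 1.10 to 1.40), with a log2 change of 0.31 ± 0.09 (SE), p = 0.000396 and an adjusted p of 0.0631 in the authors' deposited table (DESeq2). The interval for periplocin alone leaves out 1, yet the adjusted p missed the threshold of 0.05; at a threshold of 0.1 Tob1 would be the single call among the 10, where 0.812% of all genes pass (101 of 12445). The SE of Tob1 was above that of 97.4% of the 500 genes nearest in mean with bufalin and 92.8% with periplocin.

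Btg1 and Tob2 had estimates on opposite sides of control with the compounds, and every 95% interval includes 1. Btg1 had a mean of 5102 normalized counts in control cells against 4864 with bufalin (0.953-fold, 95% interval 0.848 to 1.07), and 4943 against 5143 with periplocin (1.04-fold, 0.948 to 1.14). Tob2 had a mean of 1255 in control cells against 1209 with bufalin (0.963-fold, 95% interval 0.849 to 1.09), and 1216 against 1327 with periplocin (1.09-fold, 0.959 to 1.24). In the authors' deposited tables (DESeq2) the periplocin change had an adjusted p of 0.991 for Btg1 and 0.963 for Tob2.

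The compounds were then compared with each other through the difference of their log2 changes, bufalin minus periplocin, with an approximate Wald test over 10602 genes in which the shared controls cancel. None of the 10 genes passed, and none had an unadjusted p under 0.05, where 6.34% of all genes did; over all genes 0.396% passed an adjusted p of 0.05 (42 of 10602, 11 higher with bufalin and 31 higher with periplocin). The difference was below 0, that is lower with bufalin, for 8 of the 10, where 5228 of all 10602 genes were below 0. Its median over the 10 was -0.05, against 0.00 over all genes. Tob2 had the difference farthest from 0, -0.18 ± 0.09 on the log2 scale (95% interval -0.36 to 0.00), and an adjusted p of 0.801 by that test. For Btg1 the difference was -0.13 ± 0.08 (-0.28 to 0.03; adjusted p = 0.895). Tob1 differed by -0.12 ± 0.11 (-0.33 to 0.09; adjusted p = 0.999), so its estimate with bufalin was not distinguishable from that with periplocin, although the interval reaches down to -0.33. Zfp36 had the widest interval, -0.13 ± 0.21 (-0.54 to 0.28). The scaffold Cnot1 had the narrowest, 0.04 ± 0.05 (-0.07 to 0.14). The other 5 intervals lay between -0.27 and 0.23, with differences of -0.02 for Zfp36l1, 0.05 for Zfp36l2, -0.03 for Elavl1, -0.04 for Cnot6 and -0.07 for Cnot7.

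Other genes of these pathways were read from 10 lists with 127 genes, of which 115 were found in the tables. Because the bufalin table gives an adjusted p for part of the genes only, the p-values of each table were also adjusted over all genes with a p, and the count of calls in every list was the same. In the list of Zfp36 proteins and other AU-rich element binders, 0 of 14 genes with a p passed an adjusted p of 0.05 with either compound, and the median log2 change was 0.04 with bufalin and -0.00 with periplocin. Apart from the genes above it holds Khsrp, a decay-promoting binder, with a log2 change of 0.16 ± 0.08 (SE) with bufalin (p = 0.0451) and -0.01 ± 0.07 with periplocin in the authors' deposited tables (DESeq2). Rc3h2, which encodes roquin-2, a binder of decay-promoting stem loops, had 0.08 ± 0.08 and 0.17 ± 0.07 (p = 0.0197 with periplocin), and Celf2 had -0.22 ± 0.12 and -0.04 ± 0.12 in the same deposited tables of the authors (DESeq2). The neuronal relatives of Elavl1, Elavl2, Elavl3 and Elavl4, were listed at 0 in both tables.

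The whole CCR4-NOT complex had 0 of 11 subunits called with either compound, with medians of 0.01 and 0.03. Cnot11, a subunit of the accessory module, had the lowest estimate with a log2 change of -0.42 ± 0.15 (SE) with bufalin (p = 0.00499, no adjusted p) in the authors' deposited table (DESeq2). With periplocin the change of Cnot11 was -0.24 ± 0.14 (adjusted p = 0.832; authors' deposited table, DESeq2). Cnot4, the ubiquitin ligase of the complex, had 0.11 ± 0.11 and 0.15 ± 0.11 in the authors' deposited tables. Of 6 Btg/Tob adaptors none was called, with medians of -0.05 with bufalin and 0.13 with periplocin. Btg2, a p53-responsive family member, had a log2 change of -0.18 ± 0.22 (SE) with bufalin and 0.47 ± 0.24 with periplocin (p = 0.0459, adjusted p = 0.749) in the authors' deposited tables (DESeq2). The difference between the compounds for Btg2 was -0.65 ± 0.23 (95% interval -1.09 to -0.20), with an adjusted p of 0.329 by the approximate Wald test. Its error was among the larger ones, as for Zfp36.

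Enzymes and binders outside CCR4-NOT showed no call either. Other deadenylases (0 of 7 called) had medians of 0.08 and 0.10. Pan2, the catalytic subunit of the Pan2-Pan3 deadenylase, had log2 changes of 0.11 ± 0.14 (SE) with bufalin and 0.19 ± 0.14 with periplocin in the authors' deposited tables. Parn, a poly(A)-specific ribonuclease, had 0.02 ± 0.09 and 0.10 ± 0.07 there, and Angel1 had 0.04 ± 0.13 and 0.17 ± 0.14 in the authors' deposited tables. The poly(A) binding list (0 of 5 called) had medians of 0.09 and -0.04. Paip2, an inhibitor of the poly(A)-binding protein, had 0.15 ± 0.07 with bufalin (p = 0.0376) and -0.04 ± 0.04 with periplocin, and Pabpn1, the nuclear poly(A)-binding protein, had 0.02 ± 0.08 and 0.13 ± 0.06 (p = 0.0308 with periplocin) in the authors' deposited tables (DESeq2). Paip1 had -0.13 ± 0.08 and -0.07 ± 0.06 in the authors' deposited tables.

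The steps after deadenylation were likewise without a call. Decapping and 5′ decay genes (0 of 15 called) had medians of 0.06 and 0.05. The exonuclease Xrn1 had a log2 change of 0.20 ± 0.08 (SE) with bufalin (p = 0.0128, adjusted p = 0.410) and 0.10 ± 0.08 with periplocin in the authors' deposited tables (DESeq2). Patl1, a decapping scaffold, had 0.20 ± 0.09 and 0.05 ± 0.05, and Lsm3, of the Lsm ring, had -0.19 ± 0.08 and -0.14 ± 0.08 in the authors' deposited tables. Exosome and Ski genes (0 of 12 called) had medians of -0.02 and 0.03. The exosome ring subunit Exosc4 had -0.24 ± 0.12 and -0.23 ± 0.12, with p = 0.0494 and p = 0.0489 in the authors' deposited tables (DESeq2). Exosc9 had 0.09 ± 0.07 and 0.17 ± 0.08, and Exosc2 -0.16 ± 0.10 and -0.15 ± 0.10, in the authors' deposited tables. Exosome subunits thus had estimates on both sides of 0.

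The miRNA-linked recruiters of CCR4-NOT (0 of 6 called) had medians of 0.15 with bufalin and 0.07 with periplocin. Tnrc6b, which links Argonaute proteins to CCR4-NOT, had a log2 change of 0.24 ± 0.09 (SE) with bufalin (p = 0.00714, adjusted p = 0.323) and 0.11 ± 0.06 with periplocin in the authors' deposited tables (DESeq2). Ago3 had 0.30 ± 0.16 and 0.37 ± 0.15 (adjusted p = 0.491 with periplocin), and Ago2 had 0.14 ± 0.07 and 0.09 ± 0.07 in the authors' deposited tables (DESeq2). Kinases and partners that act on the Zfp36 protein (0 of 11 called) had medians of -0.05 and -0.06, with 9 and 10 of the 11 below 0. Over all genes whose mean reached 10, 5336 of 10674 and 5396 of 10688 were below 0. Both comparisons share their control cells, so the counts for the compounds are not independent. Ywhag, a phosphoprotein-binding adaptor, had -0.05 ± 0.06 and -0.12 ± 0.04 (p = 0.00704, adjusted p = 0.365 with periplocin) in the authors' deposited tables (DESeq2). Mapk14, the p38 alpha kinase upstream of Zfp36 phosphorylation, had -0.10 ± 0.06 and -0.08 ± 0.06 in the authors' deposited tables. Ywhah had -0.08 ± 0.06 and -0.07 ± 0.05 there, in the authors' deposited tables.

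Calls appeared in only 1 of the 10 lists, that of mRNAs with AU-rich elements known as targets of Zfp36 or Elavl1. With periplocin 3 of 21 rose and 0 fell, and the median log2 change was 0.25, against -0.00 over all genes whose mean reached 10. Over all genes with an adjusted p, 0.538% were called with periplocin (67 of 12445). Of these 64 rose and 3 fell, so a rise was common to nearly all calls with periplocin. With bufalin 0 of the 10 with an adjusted p were called and the median was 0.03. The list overlaps genes already known to respond in these samples and is no independent evidence of a direction. Myc, a growth-promoting transcription factor, rose with periplocin by 0.86 ± 0.12 (SE, log2; adjusted p = 1.16e-09) in the authors' deposited table (DESeq2), and its change with bufalin was 0.03 ± 0.13. Dusp1, a phosphatase that switches off p38, rose by 0.51 ± 0.08 (adjusted p = 7.62e-07) in the authors' deposited table (DESeq2), against -0.14 ± 0.12 with bufalin. Plk3, a stress-linked kinase, rose by 0.54 ± 0.13 (adjusted p = 0.00686) in the authors' deposited table (DESeq2), against -0.05 ± 0.18 with bufalin. Zfp36, which binds such mRNAs, had its own estimate of 0.37 ± 0.20 with periplocin in the authors' deposited table, and its part in these changes was not tested.

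**Figure D3:**
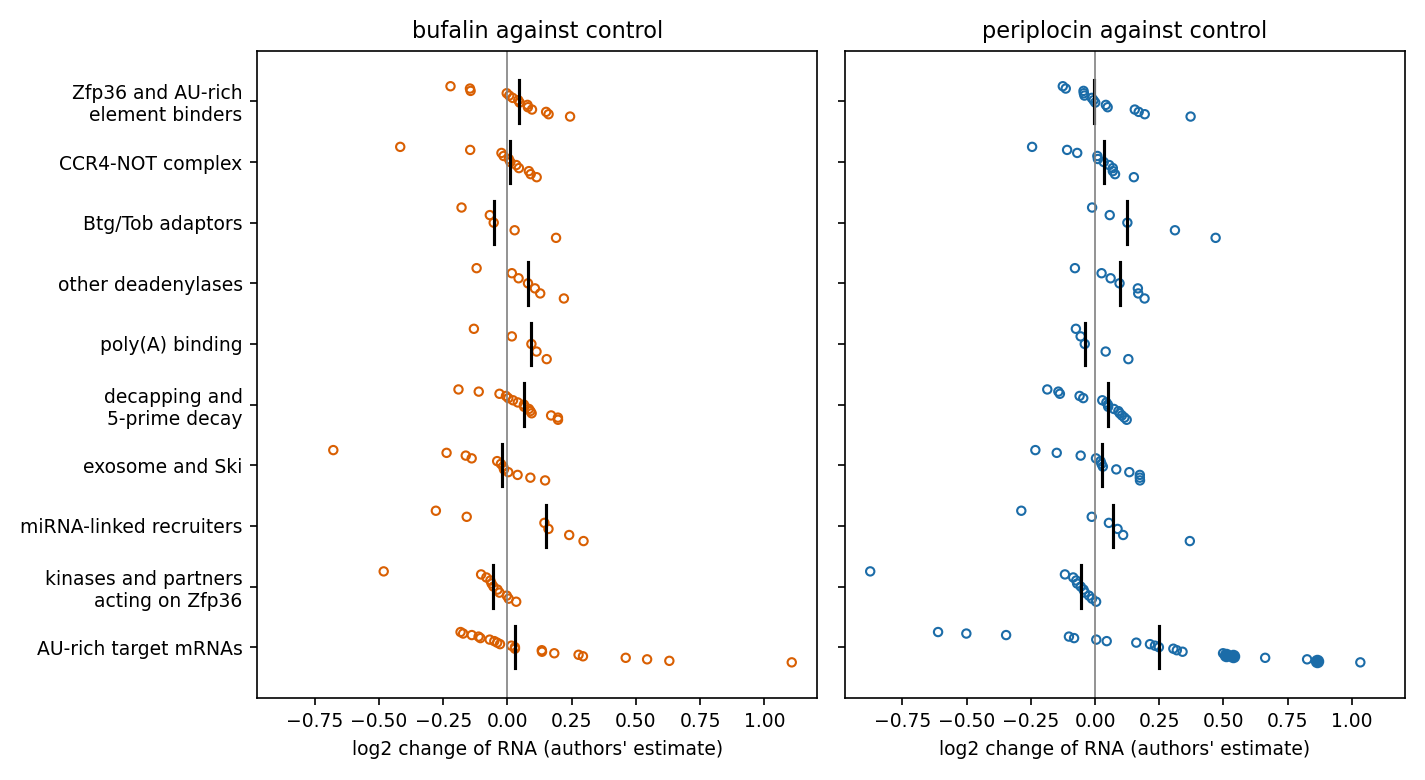
Each circle is the log2 change of 1 gene whose mean reached 10 in the authors' deposited tables, by list, with bufalin on the left and periplocin on the right; filled circles passed an adjusted p of 0.05 and black bars are list medians. Filled circles occur only for 3 AU-rich target mRNAs with periplocin (Myc, Dusp1 and Plk3).

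In the m6A peak lists, each list held 9 peaks on 7 of the 10 genes, or 70%. Among all genes with a mean of at least 500 normalized counts, 63.3% of 7015 had a peak in the bufalin list and 60.8% of 6972 in the periplocin list. Zfp36l2 and Cnot6 had no peak in either list, Zfp36l1 had one only in the bufalin list, and Elavl1 only in the periplocin list. Fold enrichment, read as IP over input, and the log2 change of m6A, read as treated over control, are the authors' values per peak. The direction of the change is not stated in the sources used here. Each list gives a single enrichment per peak for a comparison with control, so it is not read as a level in treated cells. None of the 9 peaks passed an FDR of 0.05 for the change in either list, where 0.0304% of all peaks passed with bufalin (3 of 9866) and 0.0436% with periplocin (4 of 9170). At an unadjusted p under 0.05 for the change there were 0 of 9 in each list, against 3.04% and 3.37% of all peaks. The median change of the 9 peaks was -0.08 with bufalin and -0.05 with periplocin, against -0.02 and -0.01 over all peaks. Peak coordinates are those of rn6; their place in exons or untranslated regions and their sequence need the rn6 genome and annotation and were not analysed here.

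The peak on Zfp36 lay at chr1:85380953-85381149 (plus strand) in the bufalin list and at chr1:85381002-85381149 in the periplocin list. Its enrichment was 2.57-fold in the bufalin list, at percentile 87.9, and 2.26-fold in the periplocin list, at percentile 78.0. The m6A change was -0.14 (p = 0.780) and -0.23 (p = 0.625) in the authors' deposited tables. Zfp36 was thus among the more enriched peaks with no called change. The Zfp36l1 peak at chr6:103309576-103309726 (minus strand) was enriched 1.82-fold, at percentile 49.0 of the bufalin list, with a change of -0.23 (p = 0.337) in the authors' deposited table. The Elavl1 peak, listed across chr12:2478985-2486383 (plus strand) with blocks of 25 and 75 bases, was enriched 1.31-fold, at percentile 7.95 of the periplocin list, with a change of -0.05 (p = 0.954) in the authors' deposited table.

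Cnot1 carried the least enriched of the 9 peaks in each list. This first Cnot1 peak lay in blocks of 6 and 94 bases across chr19:9703970-9708844 (plus strand) in both lists. It was enriched 1.28-fold in the bufalin list and 1.26-fold in the periplocin list, at percentiles 5.89 and 5.05. Its change, the lowest of the 9 in each list, was -0.34 (p = 0.217) with bufalin and -0.29 (p = 0.353) with periplocin in the authors' deposited tables. The second Cnot1 peak ended at the same base in both lists, chr19:9726682-9727381 with bufalin and chr19:9726732-9727381 with periplocin. Its enrichment was 1.45-fold and 1.57-fold, and its change 0.05 (p = 0.678) and -0.01 (p = 0.984) in the authors' deposited tables. Neither Cnot1 peak reached the median enrichment of its list, 1.82 with bufalin and 1.81 with periplocin. The Cnot7 peak lay across chr16:54901108-54903463 (plus strand) in blocks of 21 and 178 bases. It was enriched 3.06-fold in the bufalin list, at percentile 96.2, and 2.19-fold in the periplocin list, at percentile 75.0. Its change was -0.15 (p = 0.913) and -0.17 (p = 0.922) in the authors' deposited tables.

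The adaptor Tob1 carried the most enriched peak of the 10 genes in both lists, 398 bases at chr10:81913838-81914235 (plus strand). It was enriched 3.13-fold in the bufalin list, at percentile 96.8, and 2.76-fold in the periplocin list, at percentile 92.9. The change was -0.07 (p = 0.693) and -0.03 (p = 0.262) in the authors' deposited tables. The peak on Btg1, across chr7:37812977-37814163 (plus strand) in blocks of 2 and 389 bases, was enriched 2.61-fold and 2.65-fold, at percentiles 89.1 and 90.7. Its change was 0.05 (p = 0.957) and 0.07 (p = 0.634) in the authors' deposited tables. Tob2 had a pair of peaks on the minus strand, at chr7:123080421-123080520 and chr7:123081162-123081360. The first was enriched 1.65-fold in the bufalin list and 1.74-fold in the periplocin list. Its changes were -0.08 (p = 0.939) and -0.05 (p = 0.791) in the authors' deposited tables. The second was enriched 2.02-fold and 1.89-fold, with changes of 0.18 (p = 0.432) and 0.23 (p = 0.175) in the authors' deposited tables, the highest of the 9 in each list. Thus 5 of the 9 peaks in each list were above its median enrichment, and none reached 4-fold.

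**Figure D4:**
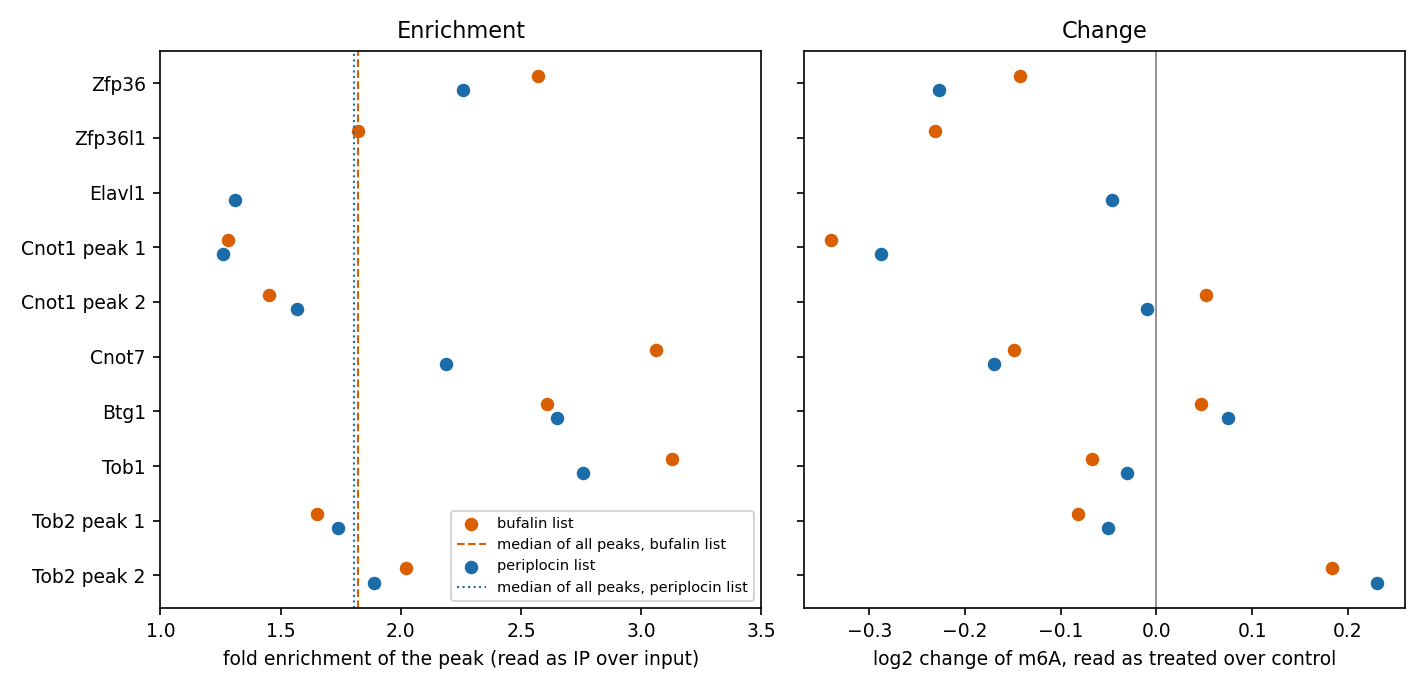
The left panel plots fold enrichment of each m6A peak on the 10 genes, with vertical lines at the median of all peaks of each list (1.82 for bufalin and 1.81 for periplocin); the right panel plots the log2 change of m6A, read as treated over control. Zfp36l1 and Elavl1 have a point for 1 list only, Tob1 lies highest in enrichment at 3.13 and 2.76, and no change passed an FDR of 0.05.

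Most of these peaks occurred in both lists, which share their control cells. Of the 9 peaks on these genes, 8 overlapped a peak of the other list on the same strand, which is 88.9% of either list's 9, and 6 had the same start and end in both. Over all peaks, 83.0% of the bufalin list and 89.4% of the periplocin list overlapped the other list by the same rule, so the share among these genes was near that background; 48.5% and 52.2% of all peaks had the same start and end. The peak that did not overlap was that of Zfp36l1 in the bufalin list and that of Elavl1 in the periplocin list. The 10 pathway lists together held 105 peaks on 60 genes in the bufalin list and 101 on 59 genes in the periplocin list, with 0 called in either. Of these, 4 and 3 had an unadjusted p under 0.05 for the change, where 3.04% and 3.37% of all peaks did. Myc had a peak enriched 2.77-fold and 2.39-fold, with changes of 0.00 and -0.15 in the authors' deposited tables. Dusp1 had 2 peaks in the bufalin list, enriched 1.22-fold and 1.43-fold, with changes of 0.01 and -0.13. In the periplocin list Dusp1 had 1 peak, enriched 1.24-fold, with a change of -0.42. None of these changes had an unadjusted p under 0.05, and Plk3 had no peak in either list.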

How the data were processed

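Groups follow the labelled compound and library kind. The libraries were stranded and carried unique molecular identifiers, per the labels' protocols. HISAT2, StringTie and DESeq are named with the build rn6, per the submitters' processing notes; for their versions and the peak caller nothing is given in the sources used here. The signal in the expression tables is a mean count per gene after the authors' scaling by size factors, per the file headers. The log2 fold changes, their SEs, the test score (read as a Wald statistic) and the p-values with Benjamini-Hochberg adjustment are the authors' DESeq2 output, per the file headers. Peak lists give the authors' fold enrichment, a ratio, with log10 of p and FDR, per the file headers. Precision comes from the SEs; depth per library was not analysed here.

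Direction was checked: control means of the tables coincided within 1%, once a common log2 offset of 0.05 was removed, for 100% of 10602 genes if each fold is treated over control, and for at most 10.9% with the sign of either or both turned, although the score has the opposite sign in all 12913 periplocin genes. Group means assume equal group sizes. For bufalin against periplocin, the spread beyond counting noise was worked out from each SE, taken as equal in treated and control cells; the SE of the difference joins spread and counting noise of the treated groups. Genes had means of at least 10. The script was tested on simulated data whose SEs were built from the true spread. That cannot show how often false calls arise when the spread is estimated, as here. Calls are adjusted p under 0.05.

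The 10 genes and all lists were chosen with earlier results of these data known. Named were the 10, and of each list every gene with an adjusted p under 0.05, otherwise up to 3 with the smallest p and a mean of at least 10. Symbols were updated through RefSeq synonyms (Skiv2l, Wdr61); Rc3h1, Pan3, Paip2b, Dcp1b, Edc3, Lsm14b, Exosc1, Exosc6, Exosc10, Skic3, Tnrc6c and Tnfaip3 were not analysed here. Alternatives covered thresholds, adjustment, count filters, centring, the SE of the difference and peak overlap. The software was Python 3.11.15 with matplotlib 3.10.9, scipy 1.17.1, pandas 2.3.3 and numpy 2.4.6.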

Additional observations from a re-analysis of the deposited data

Results flagged for a closer look

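Of 21 listed mRNAs with AU-rich elements, 4 differed between the compounds, each lower with bufalin. The test was the approximate Wald test of bufalin minus periplocin (Benjamini-Hochberg over 10602 genes). Over all genes 0.396% differed (42 of 10602), 31 of them higher with periplocin, so that direction was the more common among all calls. Myc differed by -0.84 ± 0.12 on the log2 scale (adjusted p = 5.42e-08), Dusp1 by -0.65 ± 0.10 (adjusted p = 3.23e-07) and Plk3 by -0.59 ± 0.16 (adjusted p = 0.0400). Mcl1, a survival factor named after its values were seen, differed by -0.35 ± 0.09 (adjusted p = 0.0263). The authors' deposited tables give it a log2 change of -0.11 ± 0.09 with bufalin and 0.23 ± 0.08 with periplocin. Against control it was called with neither compound (adjusted p = 0.739 with bufalin and 0.244 with periplocin, DESeq2). With the upper limit of the SE, which ignores the shared controls, Myc and Dusp1 still differed (adjusted p = 0.00646 and 0.0109), and the calls of Plk3 and Mcl1 were lost (adjusted p = 0.9999 for both, approximate Wald test). None of the 10 genes of the Zfp36 family and deadenylation differed in this test.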

How the results depend on the processing

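Of the 10 genes and their peaks, none was called in any RNA or m6A comparison under the alternatives run, with 1 exception: at an adjusted p under 0.1, 1 gene was called with periplocin, Tob1. Its adjusted p was 0.0654 over all genes with a p, 0.0595 over genes whose mean reached 10 and 0.0621 after centring (DESeq2 p-values, Benjamini-Hochberg). Centring changed the sign of 0 of the 10 estimates. With the upper limit of the SE, which ignores the shared controls, 8 genes in all differed between the compounds instead of 42, and none of the 10 did; Myc and Dusp1 were among the 8, and Plk3 and Mcl1 were not. The stricter overlap of peaks left the same count of 8. No paired analysis was possible because the deposited files hold comparisons and no values per library; leaving out each replicate was not run for that reason.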

Other observations

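Some genes that recruit CCR4-NOT through miRNAs carried many m6A peaks: Tnrc6a had 8 in each list, and Tnrc6b had 7 with bufalin and 8 with periplocin. Among genes with a peak, 1.52% in each list had at least 7, and the median was 1. These genes were picked after their counts were seen, and longer genes can hold more peaks; length was not taken into account.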
